A study of Mus musculus with 17 samples.

Results

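Alpha cells of young and adult mice were compared here, as single pancreatic cells profiled by a modified STRT-seq protocol that counts molecules by unique molecular identifiers (UMIs). A cell was taken as an alpha cell when its deposited value of Gcg was at least 3000 per 100000 and at least 3 times each of Ins2, Sst and Ppy, with Prss2 under 1500 per 100000. These cells numbered 492 among the 2999 cells of the series, and 136 of them lay in the 6 libraries that are compared. P3, from mice at postnatal day 3, had 1 library with 6 alpha cells. P12 had 2 libraries with 5 alpha cells each, and P21 had 1 library with 64. The adult Control group had 26 alpha cells in replicate 1 and 30 in replicate 2, and its replicate 3 was left out because it held 1. UMI counts were summed over the alpha cells of each library, and the library is the unit of every comparison.

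Mice of all 4 groups carried Ngn3-Cre and Rosa-RFP, and red fluorescent cells of the pancreas were sorted and then picked by mouth pipette. Ngn3 marks endocrine progenitors, so the reporter labels cells that descend from them. The adult controls were males that had received citrate buffer at 2 months of age as the controls of a streptozotocin (STZ) experiment. Their age at collection is not given, and the postnatal mice are labelled with neither a treatment nor a sex. Replicates are not stated to be separate animals, so p-values measure the spread between these libraries, which may be technical. Names of raw read files begin with a code, taken here as the sequencing run, that differs between the Control libraries. No such code was found for the postnatal libraries, so run and age cannot be told apart.

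Alpha cells secrete glucagon, the hormone that raises blood glucose by driving glucose output from the liver. They cut it from proglucagon, the product of Gcg, with the convertase encoded by Pcsk2, and store it in dense granules with chromogranins and secretogranins. Homeobox and other transcription factors set the alpha-cell fate during development and keep it in the adult islet.

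The identity of the cells was checked on genes outside the rule. Irx2, a homeobox gene of alpha cells, was detected in 6 of 6 cells at P3, in 4 of 5 and 5 of 5 cells at P12, in 45 of 64 cells at P21, and in 18 of 26 and 23 of 30 adult cells. Mafa, a transcription factor of mature beta cells, had 0 UMIs in the alpha cells of all 6 libraries, and Pcsk1, the convertase of beta cells, had between 0 and 12 UMIs per library. The label of alpha cell therefore held at every age. Gcg itself, which chose the cells, stood at 86483 CPM (UMIs per 1000000) at P3, at 79239 and 68298 at P12, at 91856 at P21, and at 109320 and 131267 in the adults. These levels and those given below for single genes are CPM scaled by the trimmed mean of M values (TMM), and since Gcg chose the cells its levels are a description with no test reported. Sums over so few cells do not by themselves tell fewer expressing cells from less RNA in each cell.

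The summed depth was 200925 UMIs at P3, 209041 and 280938 at P12, 3490102 at P21, and 1239898 and 1266340 in the adults. A count of 0 thus allows up to 14.9 CPM at P3, up to 14.4 and 10.7 at P12, and no more than 2.42 in the 3 deeper libraries, by counting error only. Median UMIs per cell lay between 28405 and 56070. Markers of acinar cells, the enzyme-secreting cells of the exocrine pancreas, summed over 27 genes to 11507 CPM at P3, 1435 and 641 at P12, 5741 at P21, and 5685 and 26851 in the adults. Blood, nerve, vessel and stromal markers summed to 4487 CPM in P12 replicate 1 and to at most 91.6 in the other libraries. Immune markers summed to at most 152 CPM in each library. Beta-cell markers without Ins2 summed to 18932 CPM at P3, 5779 and 9742 at P12, 13377 at P21, and 9843 and 7009 in the adults. PP-cell markers without Ppy, Pyy among them, summed to 19838, 1746, 8116, 11029, 15906 and 15491 in the same order. Epsilon-cell markers, which include Ghrl, summed to 1556 CPM in P12 replicate 2 and to at most 314 in the other libraries. The part of this RNA in the results below was not tested.

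**Figure D1:**
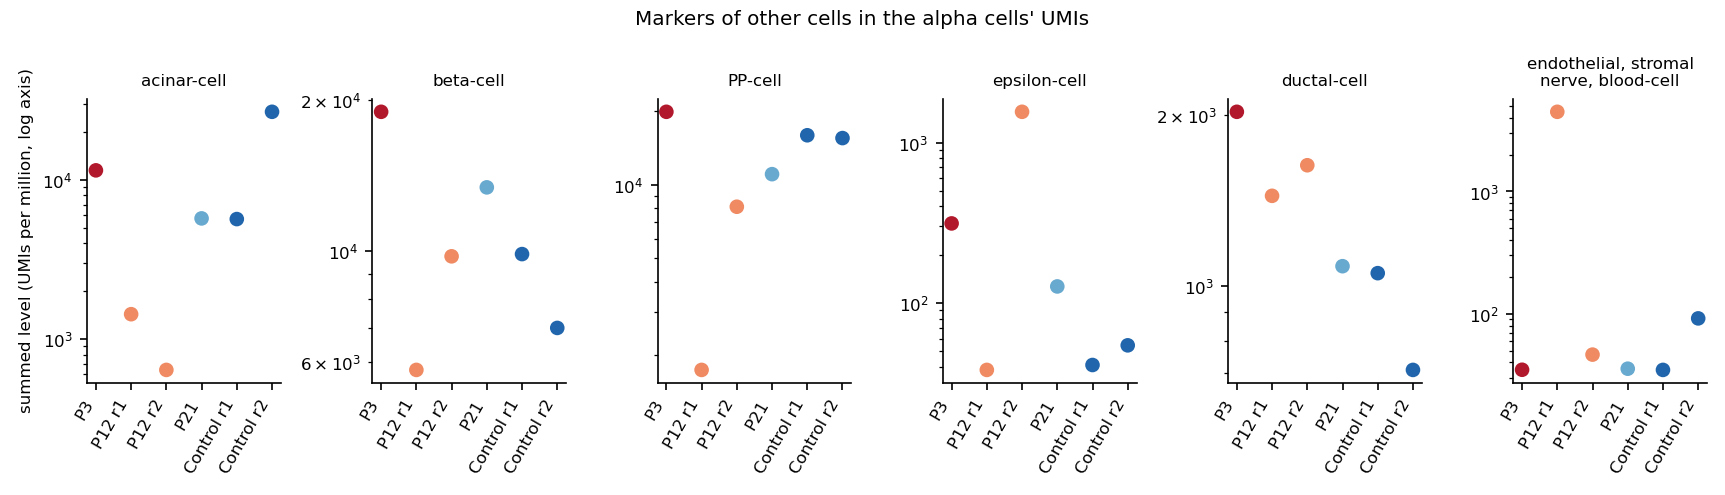
Summed CPM (log axis) of the marker lists of other pancreatic cell types in the alpha cells of each library. Acinar markers range from 641 CPM in P12 replicate 2 to 26851 in Control replicate 2, and blood-cell markers are high in P12 replicate 1.

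Across the 4 postnatal libraries as 1 arm, alpha cells differed from adult cells in few genes by test. The inducible heat shock genes Hspa1a and Hspa1b fell in the postnatal cells, the hormone gene Ghrl rose, and 3 acinar enzyme genes fell. These were the 6 genes called among 8799 tested, 0.0682% of them, 1 higher (0.0114%) and 5 lower (0.0568%), by edgeR's quasi-likelihood test at a Benjamini-Hochberg adjusted p under 0.05. DESeq2 called 4 genes, 2 in each direction, and 284 genes had an unadjusted p under 0.05 in edgeR.

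Hspa1a and Hspa1b encode nearly identical HSP70 chaperones that cells make on heat and other proteotoxic stress. Their promoters are shown because the 2 genes moved together and because reads can be split between such close copies, so that each single value is uncertain. The sequences are RefSeq's on GRCm38.p6, from 250 bases before to 50 after the start of transcription, on the minus strand of chromosome 17, at chr17:34972107-34972406 for Hspa1a and chr17:34959189-34959488 for Hspa1b. Capitals mark the match to GAANNTTC, the inner inverted repeat of the heat shock element, which reads the same on both strands.
Hspa1a: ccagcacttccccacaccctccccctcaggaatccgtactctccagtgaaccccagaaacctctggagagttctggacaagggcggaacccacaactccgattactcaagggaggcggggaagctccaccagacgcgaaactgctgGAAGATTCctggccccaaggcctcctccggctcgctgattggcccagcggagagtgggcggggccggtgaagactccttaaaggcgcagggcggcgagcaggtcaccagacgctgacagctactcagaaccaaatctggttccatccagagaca
Hspa1b: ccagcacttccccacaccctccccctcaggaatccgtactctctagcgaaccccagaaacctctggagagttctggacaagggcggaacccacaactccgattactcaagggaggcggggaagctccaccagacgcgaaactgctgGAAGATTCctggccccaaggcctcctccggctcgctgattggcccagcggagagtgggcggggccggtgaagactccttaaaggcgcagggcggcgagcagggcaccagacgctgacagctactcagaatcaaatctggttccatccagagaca
The motif lies 104 bases before the start in both, and the windows differ at 4 of 300 bases. It occurs in 2582 of the 32851 promoters of the same length, or 7.86%, so a match is a description and not a site.

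Hspa1a stood at 0 CPM at P3, at 4.43 and 0 at P12, at 16.0 at P21, and at 124 and 180 in the adults. All 4 postnatal values lay below both adult values, and the log2 difference was -4.14 ± 0.69 (SE, 4 against 2 libraries; edgeR adjusted p = 0.0117). It was detected in 0 of 6, 1 of 5, 0 of 5 and 12 of 64 postnatal cells and in 15 of 26 and 16 of 30 adult cells. Hspa1b was at 0 at P3 and in both P12 libraries, at 4.52 at P21, and at 20.4 and 155 in the adults, and fell by 4.98 ± 0.95 on the log2 scale (edgeR adjusted p = 0.0413). The groups did not overlap for either gene, while the adult libraries differed from each other several fold for Hspa1b. Dnajb1, a co-chaperone of HSP70, was at 71.6 at P3, 70.9 and 35.5 at P12, 45.8 at P21, and 292 and 151 in the adults, and did not pass the adjustment (log2 difference -2.02, edgeR adjusted p = 0.126). Beta cells of the same libraries also held less Hspa1a when young, with 3.40, 7.35, 5.01 and 21.3 against 88.3 and 108 CPM.

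Ghrl encodes ghrelin, the hormone of the epsilon cells that are frequent in fetal and newborn islets. Alpha cells held 262 CPM of Ghrl at P3, 22.2 and 1391 at P12, 93.5 at P21, and 0 in both adult libraries. Over the summed arms this was at least 160-fold higher, with the adult floor set at 3 counts over the group (edgeR adjusted p = 0.00869 for the arm). The postnatal levels themselves spread widely, and 76.3% of the UMIs in P12 replicate 2 came from 1 cell. Cells with a Ghrl UMI numbered 6 of 6, 1 of 5, 3 of 5 and 41 of 64 in the postnatal libraries and 0 of 26 and 0 of 30 in the adults. In beta cells, which should lack it, 99.2% of cells at P3 and 45.5% at P21 held a Ghrl UMI, at 463 and 853 CPM, above the alpha-cell levels of the same libraries. The share was 0.0% and 13.8% in the beta cells of the P12 libraries and 3.3% and 0.8% in those of the adults. Median UMIs per cell at P3 were 28405 in alpha and 74997 in beta cells. The part of free RNA in these Ghrl levels was not tested.

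The acinar genes that fell were Ctrl, Pnlip and Cela1, which encode digestive enzymes. Ctrl stood at 57.3, 88.6, 22.6 and 153 CPM in the postnatal libraries, in the order P3, P12 replicates 1 and 2 and P21, and at 354 and 1712 in the adults. The library with the highest acinar sum, Control replicate 2, was also the highest for each of these 3 genes. Without that library 0 genes were called in the arm, and 0 were called when every cell was thinned to 23286 UMIs. Without Control replicate 1 Hspa1a (edgeR adjusted p = 0.057) and Ghrl (0.0758) were not called. Hspa1b was not called without P3 replicate 1 (0.108) or P12 replicate 1 (0.0888), Pnlip not without P3 replicate 1 (0.108), and Cela1 not without P3 replicate 1 (0.152) or P12 replicate 1 (0.176).

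**Figure D2:**
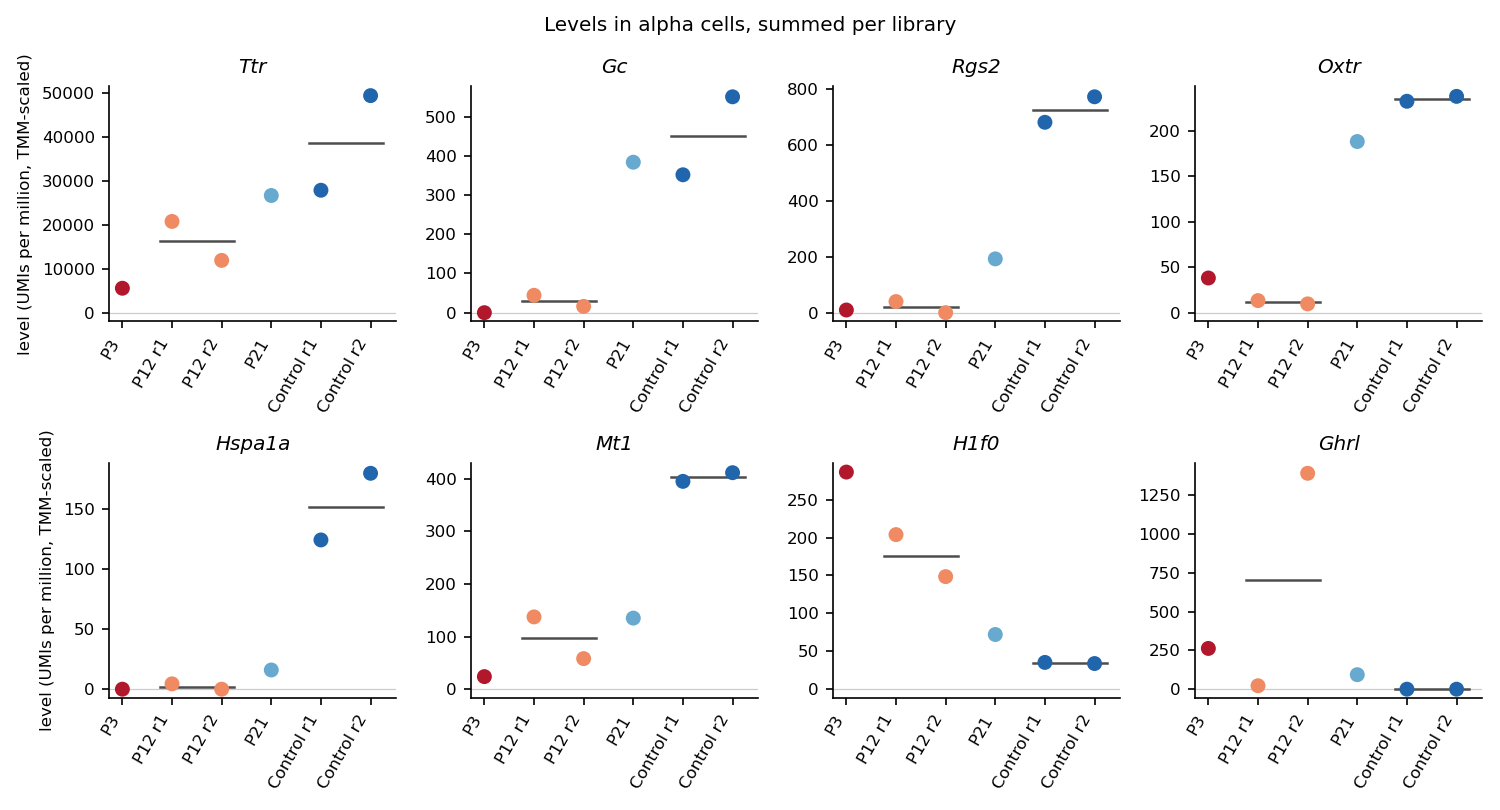
TMM-scaled CPM of 8 genes in the alpha cells of each of the 6 libraries, 1 point per library, with lines at the means of P12 and Control. Hspa1a lies at 16.0 or below in each postnatal library and at 124 or above in the adults, H1f0 falls from 286 at P3 to 33.8 in the adults, and Ttr and Gc are lowest at P3 and P12.

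Genes of alpha-cell identity gave no call in the arm. Of 27 alpha-cell transcription factors 25 were tested in the arm, and 0 were called in either direction, with a median log2 difference of 0.39 beside -0.04 over all genes. Irx2 stood at 258 CPM at P3, 217 and 210 at P12, 164 at P21, and 128 and 174 in the adults, a log2 difference of 0.48 ± 0.40. Isl1, a factor of islet endocrine cells, at 768, 784, 887 and 400 against 436 and 403, differed by 0.75 ± 0.40 without passing (edgeR adjusted p = 1). The groups overlapped for both genes. Neurod1, a factor of all islet endocrine cells, was at 797, 567, 552 and 393 against 292 and 322, above both adults in each postnatal library, with a log2 difference of 0.90 ± 0.39 that did not pass (edgeR adjusted p = 1). Genes tested in the arm lay above both adults in all 4 postnatal libraries in 4.48% of cases and below in 6.98%.

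The lists of fetal genes, imprinted genes, amino acid transporters, receptors and exocytosis genes also had 0 members called in the arm. Among 41 genes of fetal and immature endocrine cells 23 were tested, and 20 had a positive log2 difference. Their median was 0.70 beside -0.04 over all genes. An unadjusted p under 0.05 was reached by 2 of them with a higher value and 0 with a lower one (edgeR), beside 284 of all 8799 genes tested. Igf2bp2, an RNA-binding protein of fetal tissue, was at 57.3, 35.4, 51.6 and 21.4 in the postnatal libraries and at 5.56 and 6.39 in the adults, a log2 difference of 2.73 ± 0.93 with an unadjusted p of 0.00727 and an edgeR adjusted p of 1. Imprinted growth genes had 17 tested members and a median of 0.53, and Meg3 differed by -0.04. Amino acid transporters, which alpha cells use to sense amino acids, had 14 tested members and a median of -0.10. Slc38a5, the glutamine transporter of that list, was at 520, 403, 168 and 264 against 187 and 133, a log2 difference of 1.07 ± 0.45 (edgeR adjusted p = 1). Hormone and nutrient receptors had 16 tested members with a median of 0.10, and excitability and exocytosis genes 29 with a median of -0.08.

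At P3 the alpha cells differed from adult cells in a small set of genes. Ttr, which encodes the thyroxine carrier transthyretin and is among the most abundant transcripts of alpha cells, fell several fold. Gc, the vitamin D binding protein that mouse alpha cells express, was not detected, and Rgs2 and Gria2 fell. H1f0, a linker histone variant, rose. In this comparison 23 of 10202 genes were called, 0.225% of them, with 10 higher (0.098%) and 13 lower (0.127%), and 740 had an unadjusted p under 0.05 (edgeR). P3 has 1 library, so its spread was assumed to be that of P12 and Control, and the median log2 difference over all genes was -0.30.

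Granule and secreted proteins came first. Each alpha cell of the 6 libraries held a Ttr UMI, so the Ttr sums differed in RNA per cell and not in the share of cells. The median per cell was 523 per 100000 UMIs at P3, 1904 and 886 at P12, 2450 at P21, and 1843 and 3842 in the adults. Summed Ttr stood at 5559 CPM at P3, at 20782 and 11909 at P12, at 26691 at P21, and at 27890 and 49449 in the adults. The P3 library lay below every other one, and the difference from adults was -2.84 ± 0.46 on the log2 scale (edgeR adjusted p = 0.00325). Resp18, a protein of the neuroendocrine secretory path, was at 1417, 5167, 2513, 6628, 7765 and 5233 in the same order, and fell by 2.24 ± 0.48 at P3 (edgeR adjusted p = 0.0455), a call that was lost without P12 replicate 1 (0.0906) or replicate 2 (0.113). Of 16 granule genes tested these 2 fell, 0 rose, 9 had an unadjusted p under 0.05 with a lower value, and the median was -1.20 beside -0.30 over all genes. Chga, a chromogranin, was at 3345 at P3 against 8764 and 6979 in the adults and did not pass (log2 difference -1.28, edgeR adjusted p = 0.37). Pcsk2, the convertase that makes glucagon, was at 9563 at P3, 9567 and 10212 at P12, 15112 at P21, and 11735 and 12099 in the adults, a log2 difference of -0.36 ± 0.36.

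Gc was at 0 at P3, at 44.3 and 16.1 at P12, at 384 at P21, and at 352 and 550 in the adults. It was at least 26.2-fold lower at P3, with the floor at 3 counts in the P3 library (edgeR adjusted p = 0.00109). The P3 and P12 levels lay below those of the 3 older libraries. Cells with a Gc UMI numbered 0 of 6 at P3, 2 of 5 in each P12 library, 57 of 64 at P21, and 22 of 26 and 28 of 30 in the adults. With 6 cells a count of 0 allows a share of up to 45.9% by the exact interval, which limits cells with a UMI and not cells that express Gc, and the P3 cells were the shallowest. In beta cells of the P3 library, with a median of 74997 UMIs, 40.3% of cells held a Gc UMI.

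Among signalling genes, Rgs2, which dampens G protein signals, was at 9.54 at P3, at 39.9 and 0 at P12, at 193 at P21, and at 682 and 773 in the adults. It fell by 6.28 ± 1.09 on the log2 scale at P3 (edgeR adjusted p = 0.00708), and the levels kept the order of age apart from P12 replicate 2. Gria2, an AMPA-type glutamate receptor subunit, was at 52.5 at P3, 239 and 261 at P12, 392 at P21, and 390 and 529 in the adults, and fell by 3.17 ± 0.66 (edgeR adjusted p = 0.0345; 0.0509 without P12 replicate 2). It was the single called member among 17 hormone and nutrient receptors tested. Mt1, a metal-binding metallothionein, was at 23.9, 137, 58.1, 135, 395 and 412 in the order of age and fell by 4.12 ± 0.81 at P3 (edgeR adjusted p = 0.0251). Rcn3, Ptprd, Ikbip and Cald1 had no UMI in the 6 cells and were at least 8.45-fold, 8.23-fold, 6.98-fold and 6.44-fold lower.

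H1f0 was at 286 at P3, 204 and 148 at P12, 72.1 at P21, and 35.2 and 33.8 in the adults. It rose by 3.00 ± 0.60 on the log2 scale at P3 (edgeR adjusted p = 0.0275; 0.0547 without Control replicate 2), and all 4 postnatal libraries lay above both adults. It was detected in 6 of 6, 5 of 5 and 5 of 5 cells at P3 and P12, in 39 of 64 at P21, and in 8 of 26 and 12 of 30 adult cells. Beta cells held it in 80.6% to 96.8% of cells at each age.

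Other genes that rose at P3 rested on few cells. Of the 10 called higher, 6 had more than 50% of their P3 UMIs in 1 cell, namely Arhgef40 with 96.1%, Gm5531 with 99.2%, Sympk with 94.3%, Gast with 71.8%, Siglec1 with 67.3% and Ghrl with 61.8%. Gast, the gene of the stomach hormone gastrin, was at 186 at P3, 133 and 0 at P12, 7.24 at P21, and 2.78 and 0 in the adults, and rose by 6.91 ± 1.41 (edgeR adjusted p = 0.0333). The trypsin genes Prss1, Gm5771 and Gm10334 rose as well, by 8.18, 4.38 and 3.82, and they belong to a family of near-identical copies. Prss1 was held by 6 of 6 alpha cells and by 100% of beta cells of the P3 library, at 310 and 374 CPM.

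The P3 calls depended on which cells counted as alpha cells. A rule that asked for Gcg at 1.5 times the other hormones took 22 cells at P3, and 3 genes were then called, without Ttr (log2 difference -2.31, adjusted p = 0.164) and without Gc (-3.64, 0.103), while scaling by DESeq2's size factors (RLE) in edgeR also left 3, with 2 higher and 1 lower, and moved the median over all genes to -0.18. The 16 cells that this rule added held Gc in 5 cases, at 45.2 CPM before TMM scaling, Ttr at 9190 and Ghrl at 5206, and 14 of them held Irx2.

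**Figure D3:**
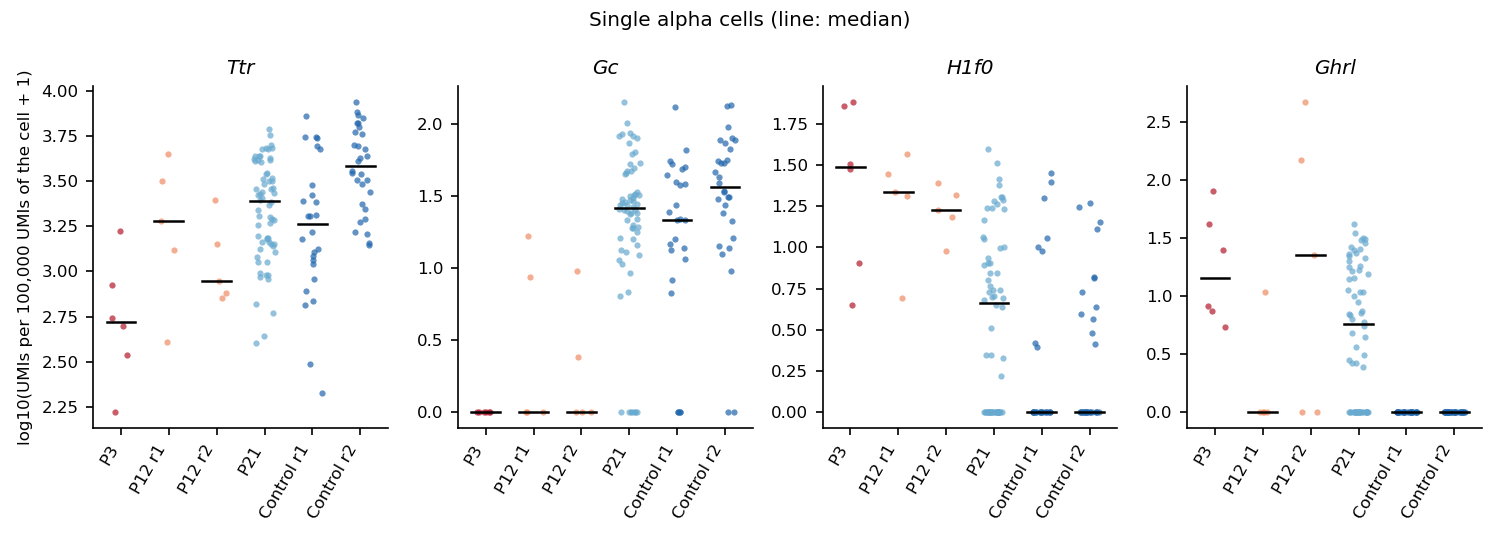
Single alpha cells by library, as log10 of UMIs per 100000 plus 1, for Ttr, Gc, H1f0 and Ghrl, with a line at the median. No P3 cell and 2 of 5 cells in each P12 library hold Gc, and no Control cell holds Ghrl.

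At P12 alpha cells again held less Gc and Rgs2 and more H1f0 than adult cells, and the oxytocin receptor gene Oxtr, Tmsb15b1, Gadd45b and Pyy were lower too. Several ribosomal protein genes fell, and so did most acinar genes. Of 10202 genes 64 were called, 0.627% of them, with 15 higher (0.147%) and 49 lower (0.48%), and 822 had an unadjusted p under 0.05 (edgeR). The called genes include Prss2 and Sst, which the rule for cells used and which are not results.

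Among secreted proteins, Gc fell by 4.00 ± 0.57 on the log2 scale at P12 (edgeR adjusted p = 0.000173). C8b, a complement component, was at 115 and 67.8 at P12 and at 449 and 412 in the adults, and fell by 2.29 ± 0.48 (edgeR adjusted p = 0.0139; 0.217 without P12 replicate 2). Pyy, the gene of peptide YY, was at 18911 at P3, 1542 and 7005 at P12, 11476 at P21, and 18157 and 17757 in the adults, and fell by 2.12 ± 0.43 (edgeR adjusted p = 0.0113). The 2 P12 libraries were the lowest for it and differed from each other several fold. The Pyy call was lost without P12 replicate 1 (log2 difference -1.40, edgeR adjusted p = 0.208), with RLE scaling in edgeR (0.158), with DESeq2 (0.676) and with a wider rule for alpha cells (0.105), and without P12 replicate 2 the difference was -3.59. Ttr (-1.29, adjusted p = 0.079), Scg2 (-1.66, 0.0529) and Gpx3 (-1.31, 0.0591) did not pass, and 0 of 16 granule genes were called, with a median of -0.42 beside -0.13 over all genes.

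Among signalling genes, Rgs2 fell by 5.38 ± 0.72 (edgeR adjusted p = 8.53e-05). Oxtr was at 38.2 at P3, 13.3 and 9.68 at P12, 188 at P21, and 233 and 238 in the adults, and fell by 4.41 ± 0.66 at P12 (edgeR adjusted p = 0.000273). Both P12 libraries and P3 were below the older libraries. Gadd45b, a stress-response gene, was at 22.2 and 6.45 at P12 against 273 and 202 and fell by 4.17 ± 0.68 (edgeR adjusted p = 0.000879). Tmem59l was at 4.77 at P3, 0 and 9.68 at P12, 105 at P21, and 155 and 212 in the adults, and fell by 5.08 ± 0.84 (edgeR adjusted p = 0.00111). Hspa1a fell by 6.28 ± 1.08 at P12 (edgeR adjusted p = 0.00162).

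Tmsb15b1, a thymosin gene, set P12 apart from the other young libraries. It was at 157 at P3, 4.43 and 3.23 at P12, 228 at P21, and 416 and 183 in the adults, and fell by 6.32 ± 0.79 at P12 (edgeR adjusted p = 3.87e-05). Beta cells showed the same gap, with 50.7 at P3, 0 and 0 at P12, 35.8 at P21, and 34.1 and 26.7 in the adults. Rps3a3 had the opposite pattern, with 0 at P3, 310 and 507 at P12, 0.603 at P21, and 0 and 0.913 in the adults, and 263 and 262 in the beta cells of the P12 libraries against at most 0.426 elsewhere. It rose by 9.42 ± 0.86 (edgeR adjusted p = 6.26e-07), and its near-identical gene Rps3a1 fell by 1.61 ± 0.35, so reads may have been split between them. Both genes thus set the P12 libraries apart in alpha and beta cells alike. Other genes that fell in P12 alpha cells were also least often detected in P12 beta cells. Gc was held by at most 10.8% of them against at least 39.6% elsewhere, and C8b by at most 3.1% against 8.1%. Tmem59l was held by at most 1.5% against 8.9%, Rgs2 by at most 18.5% against 31.5%, and Oxtr by no cell against 7.7%. Gadd45b, Hspa1a and Pyy were not lowest in both P12 libraries. The part of library preparation was not tested for any of these genes.

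Of 82 cytosolic ribosomal protein genes tested at P12, 5 fell, 1 rose and 56 had an unadjusted p under 0.05 with a lower value. Their median was -0.92 beside -0.13 over all genes. Rps14 was at 2520 at P3, 767 and 497 at P12, 2455 at P21, and 3079 and 2276 in the adults, and fell by 2.13 ± 0.37 (edgeR adjusted p = 0.00158; 0.192 without P12 replicate 2). In beta cells Rps14 was also lowest in the P12 libraries, at 415 and 365 against 1005 to 1514 elsewhere. P3 and P21 had 0 of 82 called, with medians of -0.27 and -0.07. Oxidative phosphorylation genes had 0 of 77 called at P12, with a median of -0.37.

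Acinar genes accounted for 17 of the 49 lower genes, out of 24 acinar genes tested, with a median of -4.30. Their sum was lower in both P12 libraries than in every other library.

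Genes that rose at P12 again rested partly on single cells, with 10 of 15 holding more than 50% of their P12 UMIs in 1 cell. The 4 haemoglobin genes among them came almost wholly from 1 cell of replicate 1, and Hbb-bs had 99.6% of its UMIs there. Aldh1a3, an enzyme of retinoic acid synthesis found in immature and stressed endocrine cells, had 72 of its 73 P12 UMIs in replicate 1 and was at least 124-fold higher than in the adults. Spink4 and Pde4dip rose by 5.21 and 2.51, and Neat1, a nuclear long noncoding RNA, rose by 3.74 ± 0.67 from 17.6 and 15.5 in the adults to 350 and 113 (edgeR adjusted p = 0.00254). H1f0 rose by 2.30 ± 0.53 (edgeR adjusted p = 0.0363). Without P12 replicate 1 the calls of Neat1 (edgeR adjusted p = 0.101), Spink4 (0.152), Pde4dip (0.346) and H1f0 (0.117) were lost, and that of H1f0 also without Control replicate 1 (0.128) or replicate 2 (0.142).

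P3 and P12 were set against the same adult libraries, so their differences are not independent. RLE scaling moved the P12 median over all genes to 0.00 and left 36 calls, and the wider rule for alpha cells left 34.

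At P21 alpha cells differed from adult cells by test in 1 gene, Fos, among 10202 tested (0.0098%, lower), while 89 had an unadjusted p under 0.05 and DESeq2 called 5. Fos, an immediate early gene that is switched on within minutes of stimulation, was at 1222 at P3, 1391 and 794 at P12, 182 at P21, and 2317 and 1305 in the adults. It fell by 3.31 ± 0.56 on the log2 scale at P21 (edgeR adjusted p = 0.0368). P21 has 1 library, so its spread was assumed to be that of P12 and Control, and the test holds no spread of P21. For Fos the P21 library lay below all others, and 44 of its 64 cells held a Fos UMI. Its beta cells were lowest too, with 79.7 CPM against 372 to 751 elsewhere.

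Other immediate early genes of the P21 library were low as well. Of 21 genes tested in the list of immediate early and dissociation genes, 1 was called, 15 had an unadjusted p under 0.05 with a lower value, and 0 had a positive difference. The list's median was -2.29 beside -0.02 over all genes. Egr1 was at 577 at P3, 470 and 455 at P12, 52.5 at P21, and 360 and 429 in the adults, a difference at P21 of -2.91 ± 0.56 (edgeR adjusted p = 0.0897). Jun was at 182 at P21 against 1115 and 659 in the adults (-2.29, edgeR adjusted p = 0.445). The Fos call was lost under RLE scaling, under the wider rule for alpha cells and without P12 replicate 2 (edgeR adjusted p = 0.0668).

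None of the genes called at P3 or P12 passed the test at P21 (edgeR). Gc differed there by -0.23 ± 0.56 on the log2 scale, Oxtr by -0.32 ± 0.58, Ttr by -0.53 ± 0.40 and Pcsk2 by 0.34 ± 0.35. Rgs2 differed by -1.91 ± 0.71 and H1f0 by 1.06 ± 0.58, and neither passed (edgeR adjusted p = 1). Granule genes had 0 of 16 called at P21 and a median of -0.08, and alpha-cell enriched genes 0 of 26 and a median of -0.12.

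**Figure D4:**
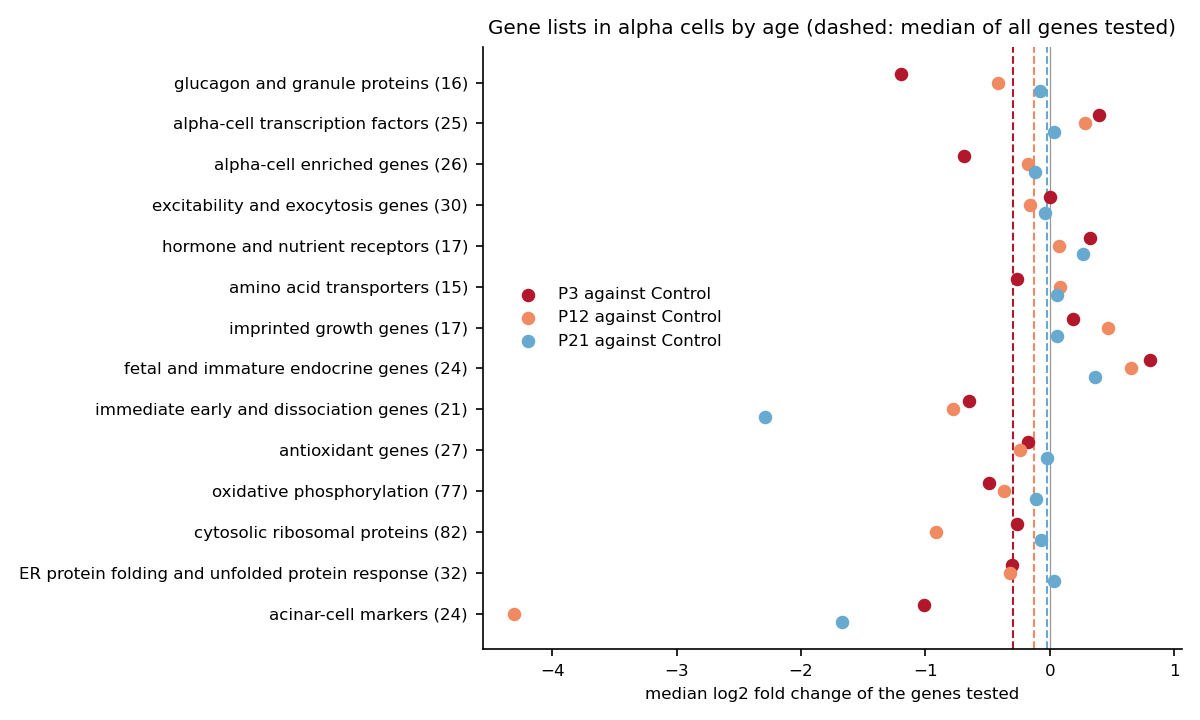
Median log2 fold change of 14 gene lists in P3, P12 and P21 alpha cells against Control, with genes at 0 in a group set at their bound. Numbers of genes tested are in brackets. Dashed lines mark the median of all genes tested without that bound, so points and lines are unlike measures for lists with genes at 0. At P3 the median of hormone and nutrient receptors was 0.32 with the bound and -0.13 without it. Granule proteins lie at -1.20 at P3 and -0.08 at P21, ribosomal proteins at -0.92 at P12, and immediate early and dissociation genes at -2.29 at P21.

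The slope on the order of age, from P3 through P12 and P21 to the adults, used all 6 libraries at once. Rgs2, Gc and Hspa1a were among the genes that rose with age, and H1f0, Gast and Ghrl among those that fell. Of 10202 genes 34 were called, 0.333% of them, with 23 higher with age (0.225%) and 11 lower (0.108%), and 803 had an unadjusted p under 0.05 (edgeR). Slopes are log2 changes per step of age, and they rest on the same libraries as the single ages.

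Rgs2 had a slope of 2.42 ± 0.27 (edgeR adjusted p = 8.91e-06), and Gc of 2.09 ± 0.31 (edgeR adjusted p = 0.000355). Ttr rose by 0.84 ± 0.16 per step (edgeR adjusted p = 0.0127), and this call was lost without P3 replicate 1 (0.0819) or P12 replicate 2 (0.0601). Gpx3, a secreted glutathione peroxidase, was at 1933 at P3, 2388 and 2733 at P12, 5003 at P21, and 5526 and 6778 in the adults, and rose by 0.61 ± 0.14 per step (edgeR adjusted p = 0.0499). The Gpx3 call was lost without any one of the 6 libraries (edgeR adjusted p from 0.0638 to 0.563) and with RLE scaling (0.0752). Its 6 values followed the order of age without overlap between groups. Ang, a secreted ribonuclease, was at 57.3, 93.1, 35.5, 104, 272 and 277 and rose by 0.88 ± 0.19 (edgeR adjusted p = 0.0297). Of 26 alpha-cell enriched genes 4 rose with age, namely Ttr, Gc, Ang and, at the threshold, Gpx3, and 0 fell, while 0 of 25 transcription factors were called, with a median slope of -0.18.

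Hspa1a rose with age by 3.20 ± 0.40 and Hspa1b by 4.27 ± 0.69, Tmem59l by 2.00 ± 0.32, Mt1 by 1.19 ± 0.19, C8b by 1.09 ± 0.18, Oxtr by 1.29 ± 0.27 and Gadd45b by 1.27 ± 0.25. H1f0 fell by 1.05 ± 0.18 per step (edgeR adjusted p = 0.00308), Gast by 2.41 ± 0.42 and Ghrl by 3.15 ± 0.66. Arhgef40, Siglec1 and Prss1 fell by 2.19, 1.35 and 1.95 per step, and Siglec1 and Arhgef40 rested on few P3 cells. Without P3 replicate 1 the slopes of Arhgef40 (-0.09), Siglec1 (-0.67), Prss1 (-1.17) and Gast (-2.75) were not called, and that of Ghrl was -1.77 and not called without P12 replicate 2 (edgeR adjusted p = 0.0847). Without Control replicate 1 the calls of Oxtr, Gadd45b, Gast, Prss1 and Ghrl were lost, and that of Oxtr also without P12 replicate 2. Without Control replicate 2, 1 gene of the 34 was called, which was Rgs2.

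Libraries of STZ-treated adults, which the comparison did not use, give a range of levels in treated mice, as CPM before TMM scaling. Their labels run from STZ_D6 (D for day) to STZ_M9 (M for month) and include STZ_M2_NoIns. They are therefore not a reference for untreated adults. In 10 such libraries Gc lay between 263 and 653 with a median of 447, above the 47.8 and 17.8 of the P12 libraries and the 0 at P3. Ttr lay between 19660 and 40900 there, H1f0 between 42.4 and 123 and Ghrl between 0 and 7.56, with a Ghrl median of 0. The P12 replicate 1 level of Ttr, 22440, lay inside that range, and the levels of H1f0 at P3 and P12, 164 and above, lay outside it. Hspa1a ranged from 1.54 to 110 in them with a median of 32.4, below both Control levels of 108 and 156, and the range takes in the levels of P12 replicate 1, 4.78, and P21, 15.2. Hspa1b ranged from 0 to 40.3 with a median of 6.78, which takes in all 4 postnatal levels. Fos ranged from 20.0 to 2018.

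Whether age changed a gene differently in alpha than in beta cells was tested as the difference of the 2 postnatal effects, with the library as a block and 690 beta cells taken by the mirrored rule. For Pyy, Rbp4 and Higd1a the beta cells of each postnatal library held more than those of both adult libraries, while the alpha-cell levels overlapped between the arms. Of 12796 genes 7 were called, 0.0547% of them, all with a lower postnatal effect in alpha cells (RLE scaling gave 2 higher and 7 lower), and 363 had an unadjusted p under 0.05 (edgeR). Ppy and Sst were among the 7, and since the rule for cells used them they are not results.

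Pyy gave the difference -3.82 ± 0.35 on the log2 scale (edgeR adjusted p = 1.1e-14), with beta-cell CPM of 10518, 2180, 2715, 1674, 494 and 726 in the order of age. Rbp4, which encodes the plasma carrier of retinol, gave -2.39 ± 0.36 (edgeR adjusted p = 6.89e-06), with 1088, 266, 318 and 438 in young beta cells against 72.7 and 96.2 in adult ones and 2233, 2894, 1039 and 1444 against 2089 and 1323 in alpha cells. Young beta cells were above adult ones in each library for Pyy and Rbp4. Both are also markers of other islet cells, Pyy of PP cells and Rbp4 of delta cells, as are Ppy and Sst, which were called with them. Without Ppy, 5 PP-cell markers summed in beta cells to 11798 CPM at P3, 2147 and 2835 at P12, 1840 at P21, and 524 and 765 in the adults, and without Sst 8 delta-cell markers summed to 1400, 280, 435 and 571 against 235 and 394, with Ppy and Sst themselves detected in young beta cells at up to 3231 and 1697 CPM. The PP-cell sums were higher in each young library and the delta-cell sums overlapped. The part of RNA from these cells in the Pyy and Rbp4 differences was not tested.

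Higd1a, a mitochondrial protein induced by hypoxia, gave -2.38 ± 0.45 (edgeR adjusted p = 0.0015). It was at 453, 665, 555 and 467 in young alpha cells and 532 and 430 in adult ones, and at 19.8, 49.4, 9.76 and 11.2 in young beta cells against 5.18 and 1.80. Rcn3, a calcium-binding protein of the endoplasmic reticulum, gave -3.59 ± 0.79 (edgeR adjusted p = 0.0293), with 0, 70.9, 106 and 123 in young alpha cells against 140 and 151. In beta cells the share with an Rcn3 UMI was 27.4%, 6.5%, 12.3% and 24.8% in the young libraries and 4.8% and 1.6% in the adults. Gcg in the same beta cells was at 2291, 290, 370 and 7355 CPM in the young libraries and at 1233 and 1238 in the adults. The part of RNA from alpha cells in the Higd1a and Rcn3 differences was not tested. The Rcn3 call was lost without P3 replicate 1 (edgeR adjusted p = 0.175), without P21 replicate 1 (0.34) and without Control replicate 2 (1), and the Higd1a call was also lost without Control replicate 2 (1). DESeq2 did not call Rcn3 (adjusted p = 1), Higd1a (0.122) or Rbp4 (0.105), and Rcn3 was not called with thinned cells (0.425) or the wider rule (0.0728). Without Control replicate 1 the Rbp4 call was lost (edgeR adjusted p = 0.123).

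The genes that marked young alpha cells were not shown to change differently in beta cells. The difference was -0.22 ± 0.32 for Ttr, -0.12 ± 0.59 for Gc, 0.55 ± 0.48 for Rgs2 and 1.37 ± 0.47 for H1f0, and none passed (edgeR adjusted p = 1). Rgs2 in beta cells was at 7.37, 8.52, 20.0 and 474 in the young libraries and at 1866 and 1498 in the adults, low in the libraries where alpha cells were low.

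**Figure D5:**
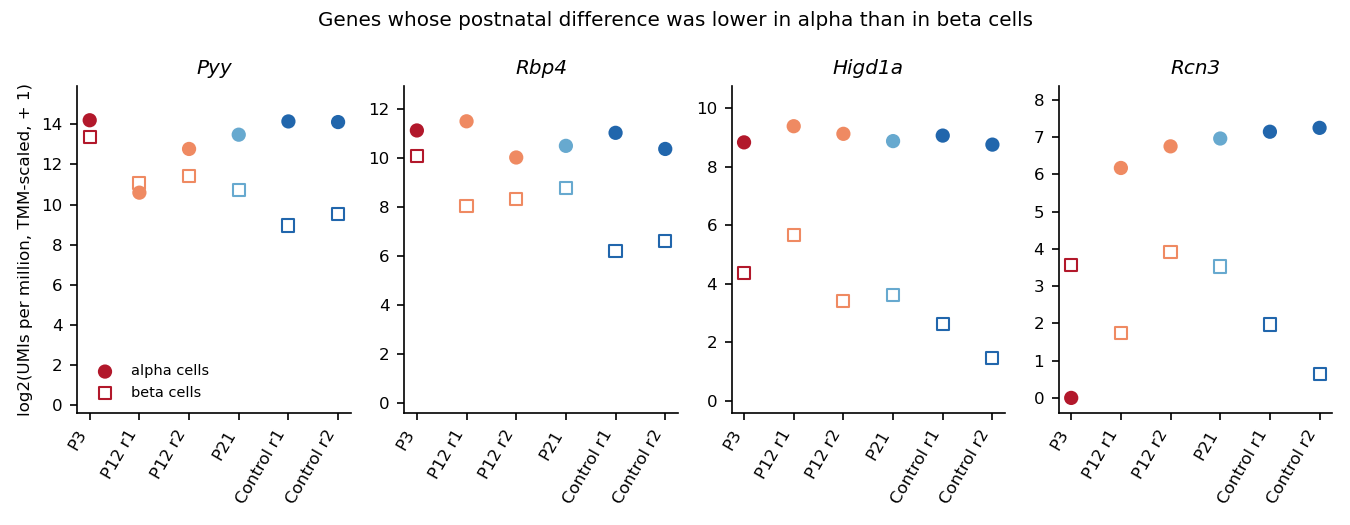
Levels in alpha cells (filled circles) and beta cells (open squares) of each library for 4 genes called in this test, as log2 of CPM plus 1. Rbp4 and Higd1a overlap between ages in alpha cells and are lowest in the beta cells of the adults, while Rcn3 is at 0 in P3 alpha cells.

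A count of cells with at least 5 UMIs of 42 cell division genes, after thinning to 23286 UMIs, left out 14 shallower cells and took in most adult cells, so its shares are not shares of dividing cells. Their number was 2 of 4 at P3, 4 of 5 and 5 of 5 at P12, 45 of 56 at P21, and 18 of 23 and 23 of 29 in the adults. The mean share was 77.6% in the postnatal libraries and 78.8% in the adults, a difference of -1.20 percentage points (exact two-sided permutation test, p = 1; 4 against 2 libraries cannot pass 0.05). The shares overlapped between ages. Spc25, a kinetochore gene, made up 18.0% to 73.2% of the UMIs of the list.

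Genes specific to dividing cells were rare in these libraries. Mki67, Top2a, Cdk1, Ccnb1 and Ccna2, which cells express while they replicate and divide, had together 1 UMI at P3, 3 and 0 at P12, 53 at P21, and 1 and 6 in the adults. At P21, 1 of 64 cells held at least 5 of these UMIs and had 22 of them, and 0 cells of the other 5 libraries did. With Spc25 left out, 1 of 4, 3 of 5, 3 of 5, 18 of 56, 9 of 23 and 8 of 29 cells passed, a difference of 10.93 points (exact permutation p = 0.533).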

How the data were processed

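A modified STRT-seq protocol was run on single cells of the mouse pancreas. The submitters' processing notes name UMI-tools 0.5.0, SAMtools 1.3.1, featureCounts 1.5.3, TopHat2 2.1.0 and the build mm10, while their roles and any filter on cells are not given in the sources used here. The authors deposited raw UMI counts of 40824 genes in 2999 cells. They also deposited a table of signal values, each of which is a UMI count divided by the UMIs of its cell outside 8 hormone genes and multiplied by 100000, within 0.01. Cells were assigned to libraries by their names, of which 0 were shared between libraries. The lowest cell had 7751 UMIs, the table held 0 mitochondrial genes by symbol, no cell was filtered here and no doublet caller was run.

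Alpha cells were chosen on the signal table, and the UMI counts of each library's alpha cells were summed. Of the cells near the limit, the lowest ratio of Gcg to the next hormone inside it was 3.63 at P3, 3.11 and 4.69 at P12, 3.02 at P21, and 3.04 and 3.17 in the adults. The highest ratio outside it was 2.79 at P3, 2.92 at P21 and 2.91 and 2.07 in the adults, with no such cell at P12. Sums were fitted with edgeR 4.0.16 (R 4.3.3, limma 3.58.1; TMM, filterByExpr, quasi-likelihood F test without robust estimation, Benjamini-Hochberg over all genes tested). The arm had 1 mean for each side, single ages came from a fit with 4 group means, and the age order used ranks 1 to 4. The standard error is the size of the log2 fold change divided by the root of F, so it restates the test. DESeq2 1.42.0 was the other tool. Shares of cells carry exact Clopper-Pearson intervals at 95% and were compared by exact permutation (Python 3.11.15, SciPy 1.17.1, pandas 2.3.3, NumPy 2.4.6, Matplotlib 3.10.9). The fits were run on simulated counts with a lower dispersion than these data, where its median was 0.207 to 0.291 over the fits. That run therefore does not show how the fits behave here.

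The cells, the gene lists and the tests were chosen with earlier results of these data known. Gcg, Ins2, Sst, Ppy and Prss2 are never results. Named for the arm were the 10 called genes with the largest fold in each direction whose groups do not overlap, and for each other test the 5 called genes in each direction with the lowest adjusted p, apart from ribosomal, predicted and other cells' marker genes, which are given under their lists. Up to 4 called members of each list and members named for their role were added. Genes named outside this rule were chosen after their values were seen, namely Resp18, Gria2, Ptprd, Ikbip, Cald1, Gm5531, Gm5771, Gm10334, C8b, Dnajb1, Egr1, Jun, Ang, Rps14, Rps3a1, Rps3a3, Hbb-bs, Spc25 and the 5 genes of dividing cells. Some genes that this rule takes are not reported here. The libraries' alpha cells were too few for a rule of 10 times the other hormones.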

Additional observations from a re-analysis of the deposited data

Results flagged for a closer look

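The postnatal effect differed between alpha and beta cells by the test of the difference itself, as log2 values of the alpha-cell effect minus the beta-cell effect, for the genes given in the report. It was -3.82 for Pyy, -2.39 for Rbp4, -2.38 for Higd1a and -3.59 for Rcn3. Over the alternatives it stayed between -4.40 and -3.31 for Pyy, which passed in each of them that kept the gene, and between -2.94 and -1.84 for Rbp4, which was lost with DESeq2 and without Control replicate 1. It stayed between -3.05 and -1.88 for Higd1a, which was lost in 2 of 12 alternatives, and between -5.08 and -2.53 for Rcn3, which was lost in 6 of 12.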

How the results depend on the processing

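The sign of a called gene held in all but 1 of 793 values for 61 gene results under the alternatives, of which 636 stayed past the threshold and 156 did not. The exception was the age slope of Arhgef40, which was 0.23 with cells thinned to 1 depth. Counts of calls moved more. Without the filter on low counts the calls were 56 in the arm, 42 at P3, 102 at P12, 9 at P21 and 96 in the age order. With RLE scaling they were 3 at P3, 36 at P12 and 0 at P21. DESeq2 gave 10 at P3, 34 at P12, 5 at P21 and 3 in the difference between alpha and beta cells. Thinning gave 0 in the arm, 8 at P21 and 80 in the age order. The wider rule for alpha cells, chosen after seeing the data, gave 10 in the arm, 3 at P3, 34 at P12, 0 at P21 and 54 in the age order. A fit that includes the STZ libraries gave 61 at P3, 141 at P12 and 16 at P21, the mean of the 3 age means gave 39 in the arm, and leaving out the 8 hormone genes gave 4 in the difference, where Pyy, Ppy and Sst were then not tested.

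Leaving out each library in turn gave 0 to 17 calls in the arm, 27 to 42 at P3, 53 to 85 at P12, 2 to 20 at P21, 1 to 74 in the age order and 3 to 12 in the difference. The arm moved by over 1.5 times without P3 (3), P12 replicate 2 (10), P21 (17) and Control replicate 2 (0), and P3 without P12 replicate 1 (35) and Control replicate 1 (42). P21 moved without each library, and the age order without P3 (74), P21 (22), Control replicate 1 (21) and Control replicate 2 (1). The difference moved without P12 replicate 2 (12) and Control replicate 2 (3). The cause was not tested. The difference in the share of cells with 5 UMIs of division genes ranged from -8.67 to 8.0 points over left-out libraries, was 8.0 without P3, 10.93 without Spc25 and 0.15 at 3 UMIs.

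The labels give a replicate number within each group and do not call it a batch. Among the adult libraries, STZ included, the number 1 spans 9 sequencing runs as read from the file names. Deviations of P12 and Control replicates 1 from their group means correlated at -0.01 over 8799 genes. P3 and P21, with 1 library each, have no such deviation, so whether equal numbers share a batch was not tested there. With the replicate block the calls were 1 in the arm, 37 at P3, 99 at P12, 10 at P21 and 20 in the age order, and Ghrl was the arm call among those named. Not run were the rule of 10 times the other hormones, for want of cells, thinning at P3, where 4 cells were left, and a replicate block in the difference, which has the library as a block. Depth limits P3 and P12 most, since a count of 0 there allows 10.7 to 14.9 CPM.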
